A study of Mus musculus with 6 samples.

Results

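The genes described here are the enzymes and regulators of cholesterol and fatty acid synthesis, 34 genes chosen by name: the mevalonate and cholesterol enzymes, the SREBP regulators, and the enzymes that make, elongate and desaturate fatty acids. A probe set counted as a member where the array annotation gave it a single gene symbol from that list, which left 32 of the 34 genes among the 22180 measured. Idi1 and Scd2 were not analysed here. The arrays held RNA of pancreatic islets from mice aged 5 weeks on the C57BL/6J background, with 3 arrays per genotype. The wildtype mice were littermates with floxed Sel1L alleles (Sel1L f/f) and no Cre, and the β cell-specific Sel1L-deficient mice carried the same floxed alleles together with Ins1Cre, a Cre recombinase gene inserted at the insulin gene Ins1. Deletion is therefore limited to cells that have used the Ins1 promoter, and all the other cells of the islet keep the gene. Isolated islets were left in culture overnight before RNA was extracted, in both genotypes. The labels do not say whether an array holds islets of a single animal or a pool, and p-values therefore describe the variation among these 6 arrays, which may be partly technical.

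Cells make cholesterol from acetyl-CoA through mevalonate, the isoprenoid farnesyl diphosphate, squalene and a series of sterol intermediates, and they make fatty acids from acetyl-CoA through malonyl-CoA. Both routes are transcribed under the SREBP factors, membrane proteins of the endoplasmic reticulum (ER): SREBF2 drives mainly the cholesterol enzymes and SREBF1 mainly the fatty acid enzymes. The escort protein SCAP carries the SREBPs to the Golgi for cleavage when ER cholesterol is low, and INSIG proteins hold SCAP in the ER when it is high. INSIG1 is itself known as a substrate of ER-associated degradation (ERAD), the process in which SEL1L serves the HRD1 ubiquitin ligase. Following the known preference of the 2 factors, 17 measured genes were taken as the cholesterol branch, 10 as the fatty acid branch and 5 as regulators.

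Most genes of both branches had a difference below 0 in Sel1L-deficient islets, all were small, and none passed the threshold; Mvk, Acss2, Acacb and Insig2 lay at or just above 0. Of the 32 genes, 28 had a difference below 0, against 49.9% of all genes and 54.3% of the genes brighter than the median probe set. In 16 of the 32 all 3 Sel1L-deficient arrays lay below all 3 wildtype arrays, and in 0 did they lie above. Among all genes 7.84% lay apart on the lower side and 7.22% on the higher side, and among the brighter genes 11% lay apart on the lower side. The threshold was an adjusted p under 0.05 from limma, Benjamini-Hochberg adjusted over all 22180 genes. It was passed by 0.243% of all genes, 0.153% on the lower side and 0.0902% on the higher side, and by 0 of the 32. At an unadjusted limma p under 0.05, 12 of the 32 were lower and 0 higher. On the lower side 5.04% of all genes and 7.4% of the brighter genes did so. With a variance prior that follows intensity and is robust to outlying genes, 2 of the 32 passed, Msmo1 and Elovl5, both with limma adjusted p = 0.0260, while the count over all genes went from 54 to 133. The median difference, on the log2 scale as are all differences here, was -0.25 over the 32 genes and 0.00044 over all genes. Islets are a mixture of cells, so fewer cells of a type and less RNA per cell cannot be told apart in these values.

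**Figure D1:**
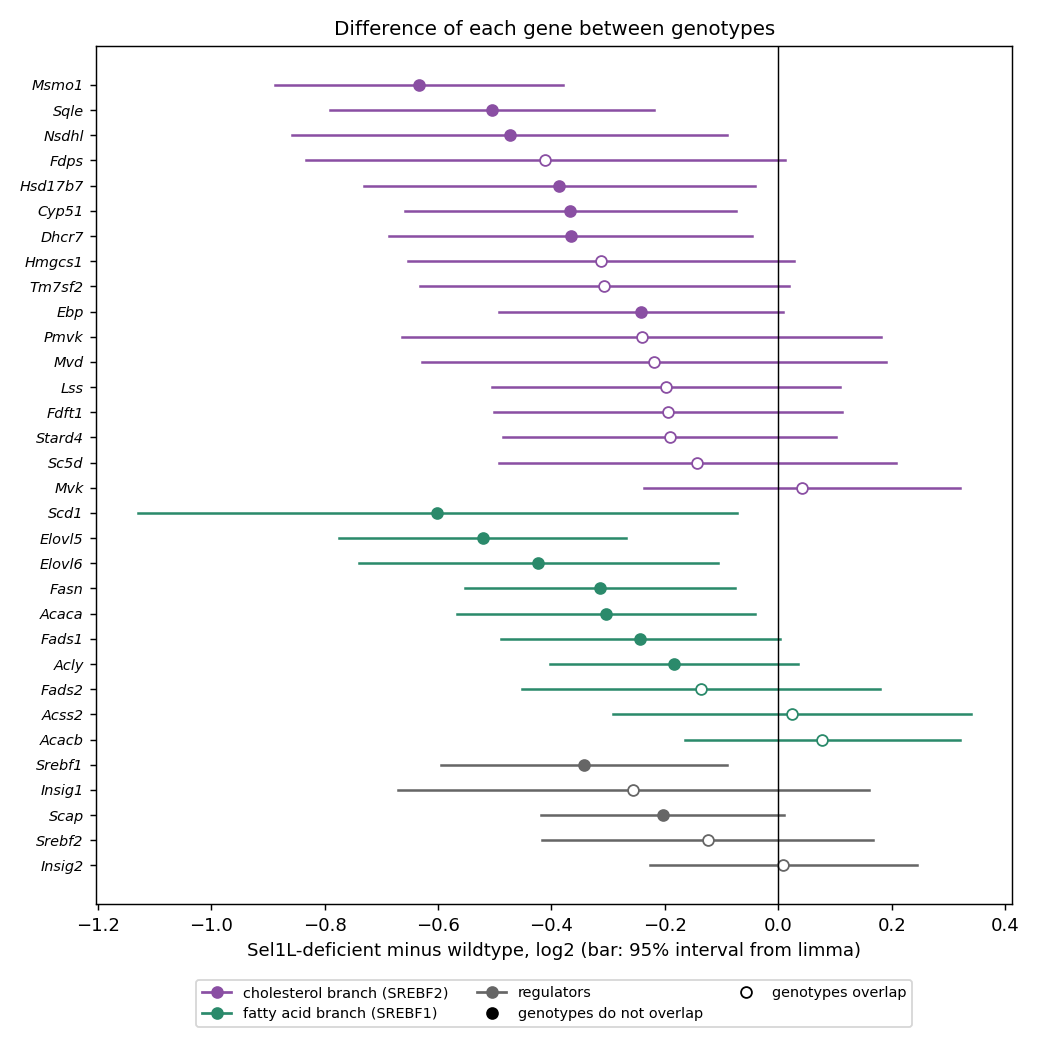
Sel1L-deficient minus wildtype difference on the log2 scale (x axis) for each of the 32 genes (y axis), in the 3 groups named in the key. Points are means over 3 arrays per genotype and bars 95% intervals from limma; filled points mark the 16 genes whose genotypes did not overlap, all of them on the lower side, and the lowest point is Msmo1 at -0.63.

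The arrays were alike in most respects, with correlations of 0.988 to 0.992 across genes and array medians of 3.08 to 3.16. Sel1l, the targeted gene, read 8.46, 8.56 and 8.76 in wildtype and 7.73, 7.65 and 7.68 in Sel1L-deficient islets (limma adjusted p = 0.0312). All 6 samples are labelled female, but in replicate 3 of each genotype the X-inactivation transcript Xist read 2.93 and 3.08, against 9.93 to 10.4 on the other 4 arrays, and 3 Y-linked genes (Uty, Kdm5d, Eif2s3y) read 5.39 to 7.31 there against 1.20 to 2.07. The same 2 arrays also had the highest mean of the 8 acinar markers within their genotype, 8.64 in wildtype and 8.59 in Sel1L-deficient islets, against 6.48 to 7.67 on the others. On the 4 arrays with female-type transcripts 28 of the 32 genes were again below 0 and 26 lay apart on the lower side, where 19.8% of all genes did. Wildtype and Sel1L-deficient islets were both rich in hormone RNA, with Ins2, Iapp, Gcg and Sst each at 10.4 or more on every array. Ins2, whose difference is given after its values were seen, differed by -0.50 and lay apart on the lower side (limma adjusted p = 0.279).

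Upstream sequence is shown for 6 genes, because cholesterol enzymes are known to be switched on by SREBP together with the CCAAT-binding factor NF-Y. RefSeq entries (GRCm38.p6) were matched by symbol for 26 of the 32 genes, with 34 transcription starts. The 250 bases before each start were searched on both strands for 4 motifs: CACNCCAC, the core of a sterol regulatory element, CCAAT, the E-box CACGTG and the GC box GGGCGG. No match overlapped a match of another motif. Msmo1, Nsdhl and Hsd17b7 are shown as the enzymes of a single demethylation step, Hmgcs1 and Insig1 as the members with a CACNCCAC match, and Fasn for the fatty acid branch. Each line runs 5′ to 3′ on the gene's strand and ends at the base before the start. Capitals mark CCAAT or its complement ATTGG and, in Hmgcs1 and Insig1, the CACNCCAC match.
Msmo1 (chr8:64733579-64733828, minus strand): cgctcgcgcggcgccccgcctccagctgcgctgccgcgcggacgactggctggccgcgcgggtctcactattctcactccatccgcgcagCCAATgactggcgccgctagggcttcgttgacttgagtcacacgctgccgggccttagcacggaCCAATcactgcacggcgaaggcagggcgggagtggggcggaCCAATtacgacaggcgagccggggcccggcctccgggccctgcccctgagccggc
Nsdhl (chrX:72918271-72918520, plus strand): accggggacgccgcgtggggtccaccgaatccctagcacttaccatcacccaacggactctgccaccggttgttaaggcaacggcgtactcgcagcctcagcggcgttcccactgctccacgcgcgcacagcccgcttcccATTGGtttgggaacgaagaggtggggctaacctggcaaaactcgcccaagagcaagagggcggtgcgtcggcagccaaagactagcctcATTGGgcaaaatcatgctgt
Hsd17b7 (chr1:169969206-169969455, minus strand): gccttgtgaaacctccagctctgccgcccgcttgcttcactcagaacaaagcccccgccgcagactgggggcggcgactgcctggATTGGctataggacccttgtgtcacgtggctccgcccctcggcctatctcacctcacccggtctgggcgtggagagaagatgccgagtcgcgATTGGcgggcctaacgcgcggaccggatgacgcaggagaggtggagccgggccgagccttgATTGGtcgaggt
Hmgcs1 (chr13:119690101-119690350, plus strand): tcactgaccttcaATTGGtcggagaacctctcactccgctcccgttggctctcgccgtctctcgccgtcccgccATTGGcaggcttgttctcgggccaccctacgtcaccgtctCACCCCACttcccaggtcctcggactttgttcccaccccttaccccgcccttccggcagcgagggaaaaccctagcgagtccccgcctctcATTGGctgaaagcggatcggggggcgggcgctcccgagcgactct
Insig1 (chr5:28071162-28071411, plus strand): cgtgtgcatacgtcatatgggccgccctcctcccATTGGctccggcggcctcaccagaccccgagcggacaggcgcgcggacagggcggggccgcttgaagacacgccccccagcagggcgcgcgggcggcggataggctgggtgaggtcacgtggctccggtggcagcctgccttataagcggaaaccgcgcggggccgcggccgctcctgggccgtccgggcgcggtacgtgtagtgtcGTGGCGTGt
Fasn (chr11:120824548-120824797, minus strand): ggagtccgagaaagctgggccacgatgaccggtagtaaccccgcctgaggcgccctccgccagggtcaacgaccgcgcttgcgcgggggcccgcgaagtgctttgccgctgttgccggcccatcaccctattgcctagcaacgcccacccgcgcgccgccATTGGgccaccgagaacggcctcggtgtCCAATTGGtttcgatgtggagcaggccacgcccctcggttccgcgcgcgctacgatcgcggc
A CCAAT match was present before 64.7% of the members' starts, against 33.8% of all starts and 34.3% of the starts of genes brighter than the median probe set. In the cholesterol branch all 13 genes with an entry had one, at 81.2% of their 16 starts. In the fatty acid branch 4 of 8 starts had one. GC boxes were present at 67.6% of member starts, against 32.7% of all starts and 57.4% of those of the brighter genes. E-boxes were present at 17.6%, against 6.02% and 8.17%. CACNCCAC was found at 5.88% of member starts, against 5.29% and 5.55%. Set against the difference between genotypes, CCAAT was found at 55.6% of the 18 starts of members that lay apart and at 75.0% of the 16 starts of those that overlapped. Some genes have several starts. Counted by gene it was present in 9 of 13 that lay apart and in 12 of 13 that overlapped. A match says only that these letters stand in the window.

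In the cholesterol branch the genes whose genotypes lay apart were all among the 11 enzymes that make squalene or act on it or on the sterol ring. All 11 were below 0, 7 (63.6%) lay apart on the lower side, and their median difference was -0.37. Among all genes 49.9% were below 0 and 7.84% lay apart on the lower side. Among the brighter genes the shares were 54.3% and 11%. The 3 enzymes that remove the methyl groups at carbon 4 of the sterol ring were among the 7 that lay apart. Msmo1, the oxidase of that step, read 6.71, 6.96 and 6.85 in wildtype and 6.12, 6.20 and 6.29 in Sel1L-deficient islets. Its difference of -0.63 ± 0.11 (SE) was the largest of the 32, a 1.55-fold lower level, and 187 of the 22180 genes had a lower one (limma adjusted p = 0.109). Nsdhl, the decarboxylating dehydrogenase, read 7.06, 6.80 and 6.85 against 6.08, 6.50 and 6.71, with Sel1L-deficient replicate 1 far below the others (-0.47 ± 0.17 SE; limma adjusted p = 0.412). Without that replicate the Nsdhl difference was -0.30. Hsd17b7, the keto reductase, read 6.13, 6.18 and 6.28 against 5.74, 5.57 and 6.13. Its genotypes were apart by less than 0.01, since the highest Sel1L-deficient value stood next to the lowest wildtype value (-0.39 ± 0.15 SE; limma adjusted p = 0.461). Erg28, the scaffold of the same complex and not a member, differed by -0.14 and overlapped.

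Squalene epoxidase, the oxygen-requiring entry to the sterol ring, was the next largest of the branch. Sqle read 8.09, 8.04 and 8.30 in wildtype and 7.46, 7.72 and 7.74 in Sel1L-deficient islets, a 1.42-fold lower level (-0.50 ± 0.12 SE, 95% interval -0.79 to -0.22; limma adjusted p = 0.245). Wildtype replicate 3 was its highest value and Sel1L-deficient replicate 1 its lowest. Cyp51, which removes the methyl group at carbon 14 of lanosterol, read 7.18, 7.20 and 7.06 against 6.60, 6.74 and 7.00. Dhcr7, which makes cholesterol from 7-dehydrocholesterol, read 6.85, 6.85 and 6.63 against 6.54, 6.15 and 6.55. Both lay apart by under 0.1, with differences of -0.37 each. Ebp, the sterol isomerase, read 6.12, 5.93 and 5.90 against 5.66, 5.73 and 5.83 and differed by -0.24. The 4 ring and squalene enzymes that overlapped were Tm7sf2, a sterol C14 reductase, at -0.31, Lss, which closes the ring, at -0.20, Fdft1, squalene synthase, at -0.20, and Sc5d, a sterol desaturase, at -0.14. The size of these differences varied with the array left out. Fdft1 was -0.08 without Sel1L-deficient replicate 1 and -0.31 without replicate 3 of that genotype. Lss was -0.12 without Sel1L-deficient replicate 2 and -0.34 without replicate 3 of that genotype. Tm7sf2 was -0.19 without wildtype replicate 1. Sc5d was -0.02 without wildtype replicate 3 and -0.30 without wildtype replicate 2.

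Of the 5 mevalonate enzymes measured, 4 were below 0 and 0 lay apart, where 7.84% of all genes lay apart on the lower side. Their median difference was -0.24, and their difference from the later enzymes was not tested. Fdps, which makes farnesyl diphosphate, read 7.68, 7.83 and 7.54 in wildtype and 6.90, 7.28 and 7.64 in Sel1L-deficient islets. Its difference was -0.41 ± 0.18 (SE; limma adjusted p = 0.542), or -0.22 without Sel1L-deficient replicate 1 and -0.59 without replicate 3 of that genotype. Sel1L-deficient replicate 3 lay within the wildtype values of Fdps and Hmgcs1 and above those of Mvd. Hmgcs1, which makes HMG-CoA, differed by -0.31 with a 95% interval of -0.65 to 0.03. Mvd, the decarboxylase, differed by -0.22 with an interval of -0.63 to 0.19, and Pmvk, the phosphomevalonate kinase, by -0.24 with -0.66 to 0.18. The Mvd difference was -0.03 without Sel1L-deficient replicate 1 and -0.40 without replicate 3 of that genotype, and Pmvk ran from -0.40 to -0.12 with 1 array left out. Mvk, mevalonate kinase, differed by 0.04 with an interval of -0.24 to 0.32 and was the one gene of the branch above 0. Stard4, a sterol carrier of the cytosol, read 5.17, 5.12 and 5.08 against 4.69, 5.00 and 5.10 and differed by -0.19, with Sel1L-deficient replicates 1 and 2 below the wildtype range and replicate 3 inside it.

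**Figure D2:**
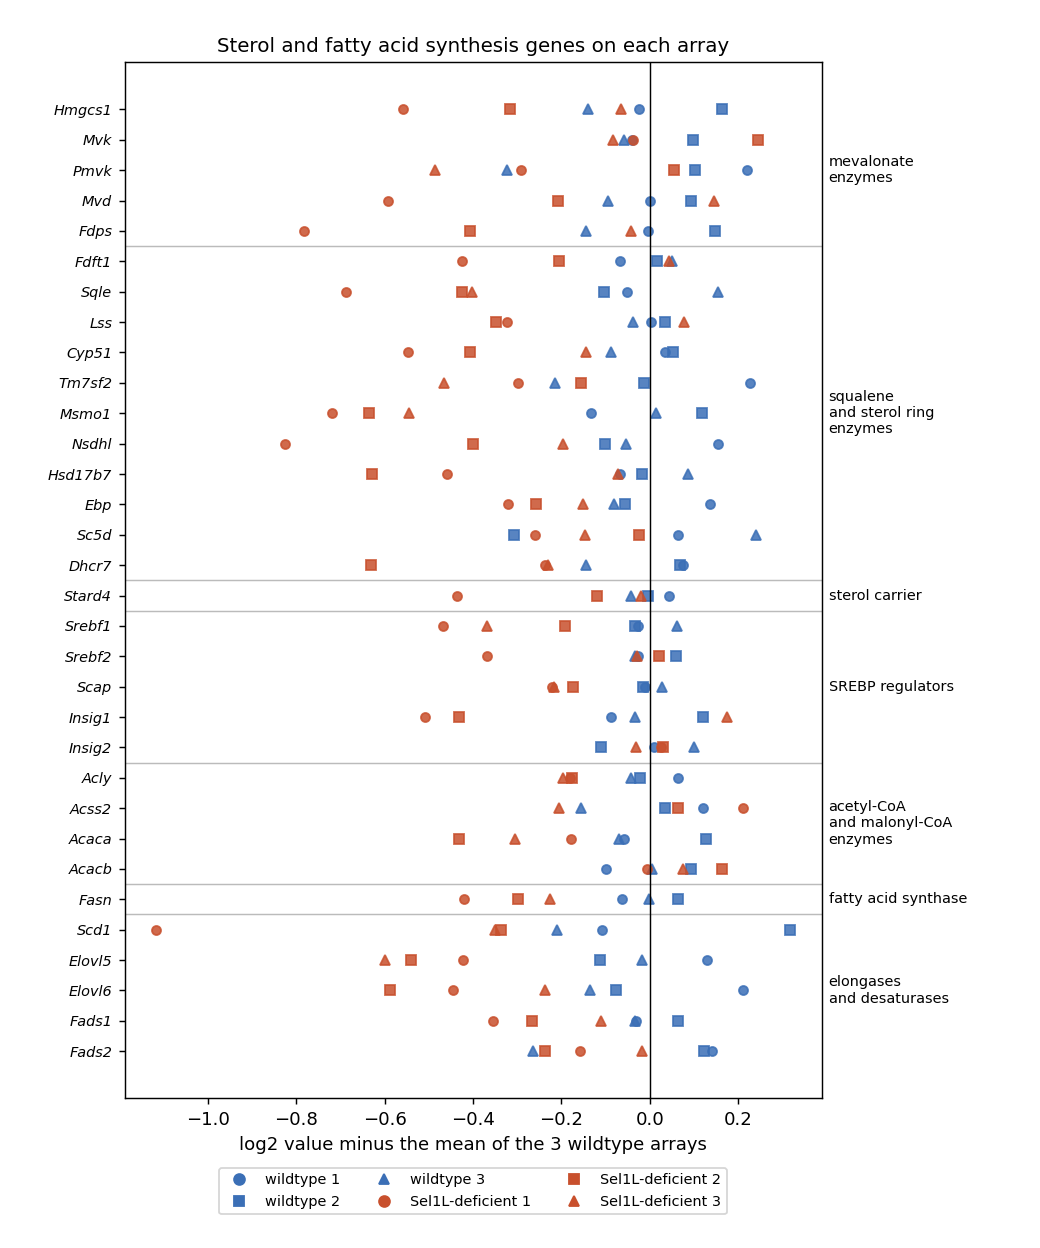
Log2 value minus the mean of the 3 wildtype arrays (x axis) for each of the 32 genes (y axis, grouped by role) on each array; colours are genotypes and shapes replicates. Sel1L-deficient replicate 1 was the lowest of its genotype in 11 of the 17 cholesterol genes, and replicate 3 the highest in 13.

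Of the 10 genes of the fatty acid branch 8 were below 0 and 7 (70%) lay apart on the lower side, with a median difference of -0.27. Among all genes 49.9% were below 0 and 7.84% lay apart on the lower side. Among the brighter genes the shares were 54.3% and 11%. All 5 elongases and desaturases were below 0, with a median of -0.42. Elovl5, an elongase of polyunsaturated fatty acids, read 9.10, 8.86 and 8.96 in wildtype and 8.55, 8.43 and 8.37 in Sel1L-deficient islets, a 1.43-fold lower level (-0.52 ± 0.11 SE; limma adjusted p = 0.181). The gap between its genotypes was wide against the spread within each of them. Scd1, the desaturase that makes oleate, read 5.87, 6.29 and 5.76 against 4.86, 5.64 and 5.62, with a difference of -0.60 ± 0.23 (SE; limma adjusted p = 0.455). Sel1L-deficient replicate 1 supplied much of it, since without that array the difference was -0.34. Elovl6, which elongates palmitate, read 7.44, 7.15 and 7.09 against 6.78, 6.64 and 6.99 and differed by -0.42. Fads1, the Δ5 desaturase, read 7.24, 7.34 and 7.24 against 6.91, 7.00 and 7.16 and differed by -0.24. Fads2, the Δ6 desaturase, differed by -0.14 with an interval of -0.45 to 0.18 and overlapped.

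Of the earlier steps, the enzymes on the route from citrate to palmitate lay apart, while Acss2 and Acacb overlapped. Fasn, fatty acid synthase, read 7.98, 8.11 and 8.05 in wildtype and 7.63, 7.75 and 7.82 in Sel1L-deficient islets (-0.31 ± 0.10 SE; limma adjusted p = 0.386). Acaca, the cytosolic acetyl-CoA carboxylase, read 6.76, 6.95 and 6.75 against 6.64, 6.39 and 6.52 (-0.30 ± 0.11 SE; limma adjusted p = 0.451). Acly, which makes cytosolic acetyl-CoA from citrate, read 11.03, 10.94 and 10.92 against 10.78, 10.79 and 10.77. All 3 genes lay apart. Acly differed by -0.18 ± 0.10 (SE, limma adjusted p = 0.612). Array signals can compress differences at high values, and this was not tested for Acly. Acss2, which makes acetyl-CoA from acetate, differed by 0.02 with a 95% interval of -0.29 to 0.34. Acacb, the carboxylase at the mitochondrial surface, read at or below 2.36 on every array, under the array medians, so its difference of 0.08 was not separated from background.

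Among the regulators, Srebf1 and Scap, the escort of both SREBPs, lay apart, while Srebf2, Insig1 and Insig2 overlapped. The difference between Srebf1 and Srebf2 was not tested. Srebf1 read 6.78, 6.77 and 6.87 in wildtype and 6.34, 6.61 and 6.44 in Sel1L-deficient islets, a 1.27-fold lower level (-0.34 ± 0.11 SE; limma adjusted p = 0.372). The probe set was not assigned to the SREBP-1a or SREBP-1c transcript here. Scap read 6.62, 6.61 and 6.66 against 6.41, 6.45 and 6.41, with a spread of 0.02 to 0.03 (SD) in either genotype. The Scap difference was -0.20 ± 0.09 (SE, limma adjusted p = 0.550) with an interval of -0.42 to 0.01. A second Scap probe set read 2.06 to 2.76, under the array medians, and differed by 0.08. Srebf2 read 8.03, 8.11 and 8.02 against 7.69, 8.07 and 8.03, so that Sel1L-deficient replicate 1 alone lay below the wildtype range. Its difference was -0.12 with an interval of -0.42 to 0.17, and -0.0035 without that array. The SREBF1 and SREBF2 proteins are controlled by cleavage, which these arrays do not measure.

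In both INSIG genes the genotypes overlapped. Insig1, a gene induced by SREBP, read 9.03, 9.24 and 9.08 in wildtype and 8.61, 8.68 and 9.29 in Sel1L-deficient islets. Replicates 1 and 2 of the deficient genotype were below every wildtype array and replicate 3 above every one, and the difference was -0.26 with a 95% interval of -0.67 to 0.16. Without Sel1L-deficient replicate 3 it was -0.47 (limma adjusted p = 0.297). Insig2 read 5.50, 5.38 and 5.59 against 5.52, 5.52 and 5.46, and its difference of 0.01 had an interval of -0.23 to 0.24.

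Within the Sel1L-deficient genotype the array means spanned a wider range in the cholesterol branch than in the fatty acid branch. Averaged over the 17 cholesterol genes, the Sel1L-deficient arrays stood at -0.46, -0.29 and -0.16 against the wildtype mean, and the wildtype arrays at 0.03, 0.02 and -0.05. Over the 10 fatty acid genes the Sel1L-deficient arrays stood closer together, at -0.31, -0.26 and -0.22, and the wildtype arrays at 0.03, 0.06 and -0.09. The lowest Sel1L-deficient array was replicate 1 for 11, replicate 2 for 3 and replicate 3 for 3 of the 17 cholesterol genes, and for 4, 3 and 3 of the 10 fatty acid genes. The difference between the branches was not tested. Over the 4 arrays with female-type transcripts the branch medians were -0.45 for cholesterol and -0.33 for fatty acids, against -0.31 and -0.27 over all 6.

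**Figure D3:**
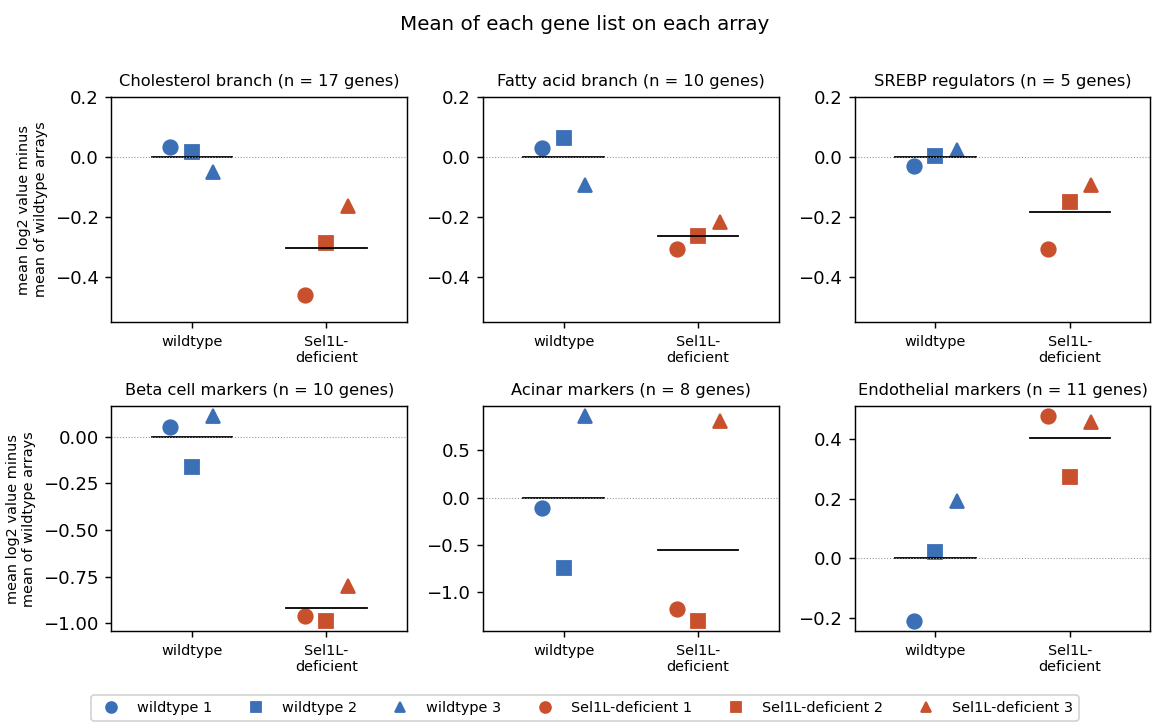
Mean log2 value of each gene list on each array, minus the mean of the wildtype arrays (y axis, log2; the scale is shared in the upper row and differs between the lower panels), by genotype (x axis). Points are arrays, shapes replicates and black lines group means; the 3 Sel1L-deficient arrays lay below the wildtype arrays in all 3 upper panels and in the β-cell panel, while the acinar panel shows replicate 3 of each genotype on top.

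Markers of several islet cell types moved with the genotype as well, and their part in the lower synthesis genes was not tested. The 10 β-cell markers were all lower and apart, against 7.84% of all genes and 11% of the brighter genes apart on the lower side. Their median was -0.78. Of the 10 markers 5 passed the threshold, where 0.153% of all genes did on the lower side. These were Mafa at -2.11, Ucn3 at -2.00, Slc2a2 at -1.38, Ero1b at -0.92 and G6pc2 at -0.91 (limma adjusted p from 0.000681 to 0.0449). Iapp and Slc30a8, chosen after their values were seen as the bright members nearest 0, differed by -0.09 and -0.07. The mean of the list was 9.78 to 10.06 on the wildtype arrays and 8.96 to 9.14 on the Sel1L-deficient arrays. The 11 endothelial markers were all above 0, with a median of 0.44 and means of 6.13 to 6.53 against 6.61 to 6.81. Of these 11, 6 (54.5%) lay apart on the higher side, against 7.22% of all genes. Kdr and Emcn, the brightest of them, differed by 0.55 and 0.36. The 10 mesenchymal markers were also all above 0, with a median of 0.46 and means of 4.51 to 5.28 against 5.27 to 5.53, Sparc and Rgs5 differing by 0.45 and 0.72. In 3 of the 10 (30%) the genotypes lay apart on the higher side.

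In all the marker lists other than the β-cell list, the endothelial and mesenchymal lists included, 0 genes passed the threshold by limma. The 8 acinar markers had a median of -0.66 with wide overlap, their list means running from 7.04 to 8.64 in wildtype and from 6.48 to 8.59 in Sel1L-deficient islets, and Ctrb1 and Cpa1 differed by -0.49 and -0.75. The 8 markers of α, δ and PP cells had a median of 0.16 and means of 9.47 to 9.61 against 9.69 to 9.74, with Gcg at 0.03 and Sst at -0.03. Of those 8, 7 were above 0 and 2 (25%) lay apart on the higher side, against 7.22% of all genes. The 2 were Irx1 at 0.56 and Pyy at 0.25, both named after their values were seen. The 5 duct markers had a median of -0.13 and means of 5.76 to 6.05 against 5.48 to 5.90, with Epcam and Krt7 at -0.13 and -0.12. Of these 5, 2 (40%) lay apart on the lower side, against 7.84% of all genes, and 0 had an unadjusted limma p under 0.05. The 9 leukocyte markers had a median of -0.16 and means of 4.07 to 4.59 against 4.05 to 4.25, with Cd68 at -0.02 and C1qb at -0.33. The 4 Schwann cell markers had a median of 0.07 and means of 3.40 to 3.64 against 3.39 to 3.67, with Mbp at 0.03 and Ngfr at 0.10. Fat cells use the same synthesis genes, and 7 of the 8 adipocyte markers, Adipoq, Plin1 and Lep among them, had group means below the array medians. The exception was Fabp4, at 4.20 and 4.19, which differed by -0.02. The adipocyte list had a median of -0.09 and means of 2.41 to 2.52 against 2.27 to 2.48. In 2 of the 8 (25%) the genotypes lay apart on the lower side, against 7.84% of all genes. These were Lep at -0.29 and Retn at -0.27, both below the array medians and named after their values were seen. The part of fat cells was not tested.

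Other genes of the same pathways, taken from lists drawn up by function, were closer to 0. Of 72 measured, 41 were below 0 and 0 passed the threshold in either direction by limma. On the lower side 7 (9.72%) lay apart and on the higher side 3 (4.17%), against 7.84% and 7.22% of all genes. At an unadjusted limma p under 0.05, 5 (6.94%) were lower, against 5.04% of all genes, and 2 were higher. The 23 other genes of fatty acid synthesis, elongation and supply came closest to the members, with 16 below 0 and a median of -0.10. Of these 23, 5 (21.7%) lay apart on the lower side and 1 (4.35%) on the higher side. Me1, malic enzyme, which makes NADPH for fatty acid synthesis, read 7.12, 7.50 and 7.35 in wildtype and 6.82, 6.84 and 6.89 in Sel1L-deficient islets (-0.48 ± 0.12 SE; limma adjusted p = 0.260). Thrsp, a regulator of lipogenesis, also differed by -0.48, from 2.62 to 2.14, both below the array medians and not separated from background. The elongases Elovl1 and Elovl2, chosen after their values were seen, lay apart at -0.24 and -0.29. In the other direction Fads3 differed by 0.38 and overlapped, and Mid1ip1 lay apart on the higher side at 0.14. Fads3 and Mid1ip1 were also named after their values were seen. The 7 other enzymes of cholesterol and isoprenoid synthesis had 6 below 0, 0 apart and a median of -0.06, with Tmem97, a sterol-responsive membrane protein, at -0.16.

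Of 10 measured genes that process SREBPs or degrade sterol enzymes in the ER, 3 were below 0, 0 lay apart and the median was 0.06. Erlin1 and Erlin2, ER proteins that take part in INSIG1 turnover, differed by -0.22 and 0.22. The proteases of SREBP cleavage, Mbtps1 and Mbtps2, named for that role, differed by 0.05 and 0.14 and overlapped.

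Of 17 measured genes of cholesterol export, uptake and storage, 9 were below 0, with a median of -0.01. In 1 of them (5.88%) the genotypes lay apart on the lower side and in 2 (11.8%) on the higher side, near the 7.84% and 7.22% of all genes. Scarb1, the receptor that takes up cholesterol from HDL, read 6.48, 6.69 and 6.44 in wildtype and 7.14, 7.27 and 6.85 in Sel1L-deficient islets, a 1.46-fold higher level (0.55 ± 0.14 SE, 95% interval 0.24 to 0.86; limma adjusted p = 0.246). Abca1, the cholesterol exporter induced by LXR, read 7.99, 8.06 and 7.94 against 8.43, 8.20 and 8.15 and differed by 0.26 (limma adjusted p = 0.514). Lrp8, a lipoprotein receptor, lay apart on the lower side at -0.29. Abcg1, another LXR target, differed by -0.10 and overlapped. Abca1, Lrp8 and Abcg1 were chosen after their values were seen. Cyp46a1, which hydroxylates cholesterol, differed by 0.31 and overlapped.

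**Figure D4:**
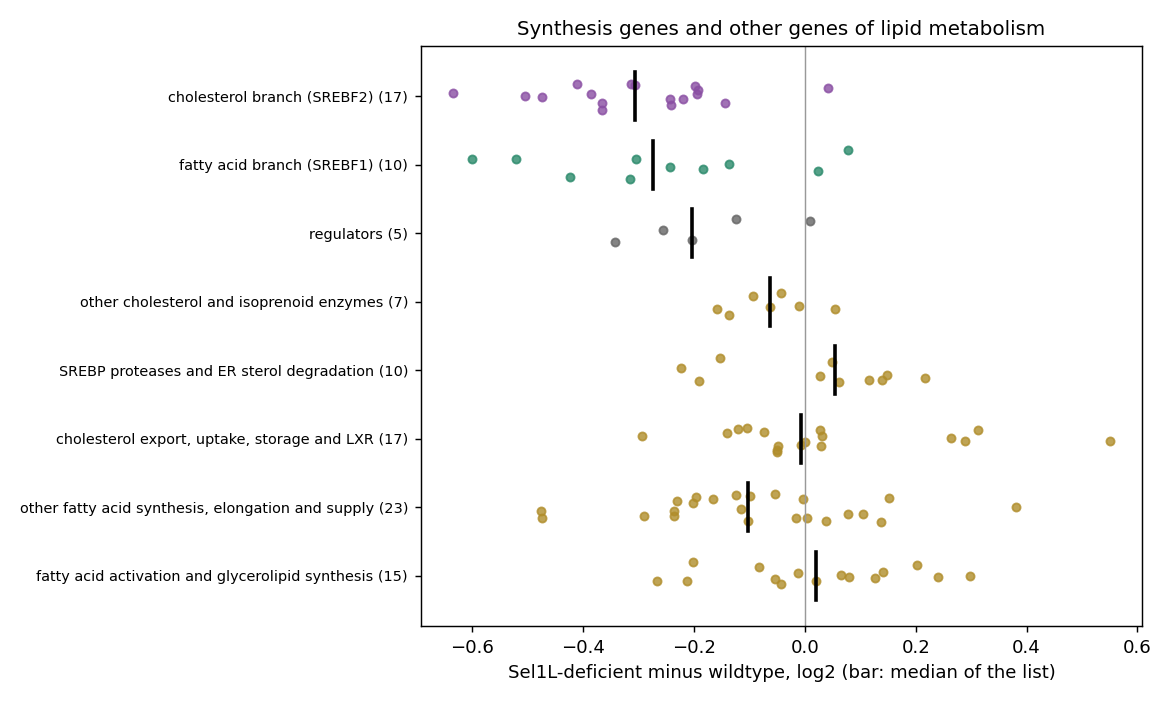
Sel1L-deficient minus wildtype difference on the log2 scale (x axis) of every measured gene, 1 point each, in the synthesis groups and in 5 other lists of lipid genes (y axis, number of genes in brackets; vertical scatter is arbitrary). Black bars are list medians, which lay at -0.31, -0.27 and -0.20 in the synthesis groups and from -0.10 to 0.06 in the other lists.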

How the data were processed

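RNA of pancreatic islets was measured on 6 Affymetrix arrays, 3 per genotype. The authors summarised the probe sets with RMA, per the submitters' processing notes. Its version and any filters are not given in the sources used here. Since no log base is stated, the range of the deposited values (0.526 to 13.0) was the ground for reading them as log2. RMA can compress differences, and the table holds no detection call.

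Of 41345 probe sets, 23521 had 1 gene symbol in the platform annotation, 1814 had several and 16010 were unnamed here. Each gene was represented by its brightest probe set, which gave 22180 genes; 1 of the 32 measured members, Scap, had more than 1. Genotypes were compared in R 4.3.3 by limma 3.58.1 (functions eBayes and lmFit, two-sided, adjusted p under 0.05 over all genes), and the fit was tested on simulated data. Errors are SE from limma or SD over 3 arrays.

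All members are named, and values on every array are given for members that lay apart, the regulators, Stard4 and the 4 largest differences per branch. From the other lists the text names genes past the threshold, or else the 2 largest differences (lipid lists) or the 2 brightest genes (9 marker lists); the few named outside this rule are marked in the text. The members and lists were chosen with earlier results of these data known, so no list was given a p-value. The alternatives are given in the closing section.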

Additional observations from a re-analysis of the deposited data

How the results depend on the processing

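The 32 genes held 0 calls in 13 of the 14 alternative fits and 2 with the trend and robust prior. The count over all genes was 54; it was 133 with that prior, 4 to 29 with 1 array left out, and 1 when replicate 3 of both genotypes was left out, which keeps 4 arrays. The number of members below 0 stayed at 28 to 30 in the fits that kept all 32. The number apart and lower was 16, from 14 with quantile normalization to 26 on those 4 arrays, and 16 to 23 with 1 array left out; this count was checked after the data had been seen. Fewer arrays overlap less by construction: the share of all genes apart and lower went from 7.84% to 12.1% to 14.2% with 1 array left out and to 19.8% on the 4 arrays. The cholesterol median was -0.45 on the 4 arrays, and -0.40 to -0.22 with 1 array left out, while the fatty acid median was -0.31 to -0.22. Of 447 single-gene values, 439 kept their direction and side of the threshold, 2 passed it (Msmo1 and Elovl5, above) and 6 changed sign, all from differences near 0. With 1 array left out Mvk ran from -0.061 to 0.10, Acss2 from -0.071 to 0.14 and Insig2 from -0.046 to 0.059, passing -0.0020 without Sel1L-deficient replicate 2, and Insig2 was -0.0045 with arrays centred on their medians. The cause was not tested. With a replicate block 36 genes were called and 0 of the members; the labels give the numbers no meaning, deviations of same-numbered arrays correlated at 0.105, 0.0720 and 0.210, and all 6 arrays correlated best with their own number. The number of arrays limits the precision, and members' standard errors ran from 0.094 to 0.23.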

Other observations

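Genes that activate fatty acids or build them into glycerolipids stood near the rest of the array. Of 15 measured, 7 were below 0, 0 passed the threshold by limma and 0 had an unadjusted p under 0.05, with a median of 0.02. On the lower side 1 (6.67%) lay apart, against 7.84% of all genes. Dgat1, which makes triglyceride from diacylglycerol, read 4.82, 5.01 and 5.21 in wildtype and 5.27, 5.48 and 5.18 in Sel1L-deficient islets, a difference of 0.30 with a 95% interval of -0.01 to 0.61. Acsl5, an acyl-CoA synthetase, differed by -0.27, from 6.85 to 6.58, and overlapped. Plin2, the coat protein of lipid droplets, differed by 0.24 and overlapped, and was chosen after its values were seen.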
